A study of Homo sapiens with 20 samples.

Results

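Cadherin genes named CDH and protocadherin genes named PCDH with a plain number were drawn from the count tables, leaving out CDH1 and CDH3. This gave 32 genes of the 25411 in the tables, 21 of them CDH and 11 of them PCDH. The clustered protocadherins, whose symbols carry letters, were not part of the set. The rule used gene names alone, though it was set with earlier results of these data known. The cells were BEAS-2B, an immortalised human bronchial epithelial cell line, and total RNA was sequenced in 20 libraries of 7 groups. The study addresses whether nickel leaves epithelial cells with a lasting mesenchymal character through the transcription factor ZEB1.

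Unexposed cells formed Control_3D (4 libraries) and Control_6W (2 libraries), controls for 3 days and 6 weeks. Ni_3D (2 libraries) was labelled as nickel for 3 days and Ni_3D+14D (2 libraries) as 3 days followed by 14 days more. Ni_6W (2 libraries) was cells kept with NiCl2 for 6 weeks. Ni_6W+2W (2 libraries) was such cells washed and kept without nickel for 2 weeks. Ni_clone was 6 populations, 1 library each, each grown without nickel from a single colony of cells that had had NiCl2 for 6 weeks. The labels print 100 mM for the clones' parent cells, a unit that could not be checked here and may be a misprint, and no single concentration for the other exposures. The clones are therefore 6 picked colonies of 1 line, and the other groups are uncloned cultures. The labels do not say whether replicates of a group were separate cultures, and each p-value therefore reflects the spread among these libraries alone, which may be technical.

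Cadherins are single-pass membrane proteins that hold cells together in a calcium-dependent way. The type I and type II classical cadherins bind catenins, which link them to actin, while protocadherins have other cytoplasmic tails and act mostly in weaker or signalling contacts. In the loss of epithelial character known as epithelial-mesenchymal transition, cells typically exchange E-cadherin (CDH1) for N-cadherin (CDH2), a step called the cadherin switch, and ZEB1 is a known repressor of CDH1. Many of the other members are best known from brain, where they help to sort neurons.

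Library totals ran from 8609243 to 88848786 reads, so a gene at 0 reads was read at very different depths. Levels are given in CPM, a gene's reads relative to the library total after TMM scaling. KRT8 and KRT18, keratins of simple epithelium, were abundant in all 20 libraries (186 to 836 CPM for KRT8). The mesenchymal marker VIM was abundant in all 20 as well, controls included, at 1528 to 4270 CPM. The controls therefore held mesenchymal beside epithelial transcripts. EPCAM stood at 1.58 to 9.59 CPM, CDH1 did not exceed 2.05 CPM in 18 libraries, and the basal markers KRT5 and TP63 reached at most 4.04 and 0.214 CPM. Control_3D replicate 1 and Ni_3D replicate 1 stood apart: they held CDH1 at 11.4 and 29.1 CPM with TFF1 at 20.1 and 33.3 CPM and ESR1 at 3.52 and 10.7 CPM, and ESR1 had no reads in the other 18. ZEB1 was at 0.61 to 1.76 CPM in Control_3D replicates 3 and 4 and both Control_6W libraries. It was at 11.9 and 12.4 CPM in Control_3D replicates 1 and 2 and at 7.75 to 18.1 CPM in the nickel libraries, so the controls of 1 label did not share a ZEB1 level. FN1, another mesenchymal marker, split Control_3D likewise: 3185 and 3114 CPM in replicates 1 and 2, 161 and 102 CPM in replicates 3 and 4. FN1 was at 118 and 173 CPM in Control_6W and at 212 to 2076 CPM in the nickel libraries. The endothelial markers summed to 1.13 to 8.12 CPM over 7 of 7 genes measured, the muscle markers to 0.70 to 4.18 CPM and the neural markers to 37.3 to 121 CPM. In such bulk samples, fewer cells with a transcript and less of it per cell cannot be told apart.

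Per length, N-cadherin was the leading member in the line. By the authors' RPKM, which divides by transcript length, CDH2 led with a median of 42.5 over the 20 libraries. T-cadherin (CDH13) followed at 12.4 and CDH24 at 11.6. The ranges of CDH13 (7.34 to 19.0) and CDH24 (9.67 to 17.0) overlapped, so their order is not fixed, whereas the lowest CDH2 value, 20.9, lay above both. PCDH1 came next at 1.15, then PCDH7 at 0.31 and CDH4 at 0.274, and these 3 ranges overlapped widely. CDH2, CDH13 and CDH24 together held 84.6% to 98.5% of the members' reads in a library, and CDH2 alone 44.4% to 73.1%.

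The other members were rare. Only 6 of the 32 had a median of at least 1 CPM and only 5 had reads in every library, namely CDH2, CDH13, CDH24, PCDH1 and PCDH12. CDH19 had no reads at all. The 18 members that neither reached a mean of 1 CPM in a group nor passed a test stayed at or under 2.14 CPM. Markers of other tissues lay among them: the endothelial cadherin CDH5 reached 0.23 CPM and the muscle cadherin CDH15 0.229 CPM, with reads in 14 and 15 libraries. Kidney cadherin CDH16 had 7 reads, all in Control_3D replicate 1. Intestinal cadherin CDH17 had 4 reads, all in Control_3D replicate 1 and Ni_3D replicate 1, the libraries that also held ESR1. After a filter on low counts 19 members could be tested in the fit of the 14 uncloned libraries, 14 in the clones against Control_6W and 12 in the clones against Ni_6W+2W. The 13 members not tested in the first fit were at most at 1.34 CPM.

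**Figure D1:**
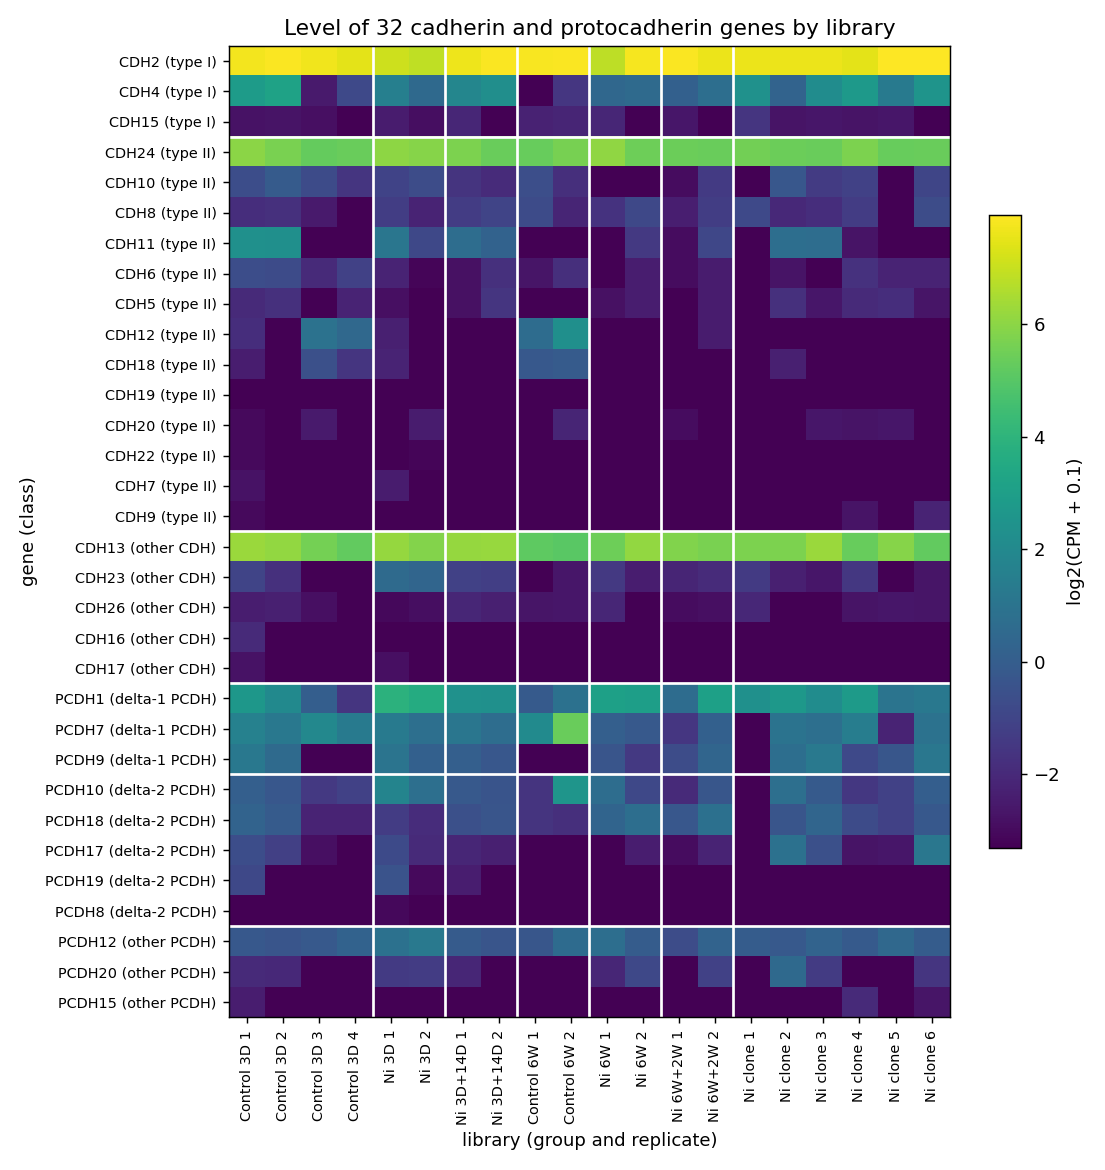
Level of each of the 32 genes (vertical, grouped by class) in each of the 20 libraries (horizontal, grouped by label), as log2 of CPM plus 0.1 in colour. CDH2, CDH24 and CDH13 are bright in every library, while CDH12 and CDH18 are seen chiefly in Control_3D replicates 3 and 4 and in Control_6W.

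Among the type I classical cadherins, CDH2 was high in every library and lowest while nickel was present. CDH2 (chr18:25530930-25757445, minus strand, hg19 as deposited) was at 214, 237, 206 and 178 CPM in Control_3D replicates 1 to 4 and at 231 and 235 CPM in Control_6W. It was at 137 and 117 CPM in Ni_3D and at 113 and 220 CPM in Ni_6W. After nickel it was at 205 and 235 CPM in Ni_3D+14D, at 239 and 199 CPM in Ni_6W+2W, and at 180 CPM (lowest), 196 CPM (median) and 247 CPM (highest) in the clones. Both Ni_3D libraries and Ni_6W replicate 1 thus lay below all other libraries, and Ni_6W replicate 2 lay among the controls. The group means were 209 ± 24.3 CPM (SD, n = 4) in Control_3D, 127 ± 14.0 (SD, n = 2) in Ni_3D and 166 ± 75.6 (SD, n = 2) in Ni_6W.

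Tests used edgeR's quasi-likelihood F test, adjusted over all genes by Benjamini-Hochberg, and a gene is said to rise, fall or pass when the adjusted p was under 0.05. No CDH2 difference passed. The log2 fold change was -0.70 (SE 0.23, adjusted p = 0.0895 by edgeR) in Ni_3D against Control_3D and 0.77 (SE 0.26, adjusted p = 0.252) from Ni_3D to Ni_3D+14D. It was -0.49 (SE 0.26, adjusted p = 0.25 by edgeR) in Ni_6W against Control_6W and 0.40 (SE 0.26, adjusted p = 0.76) from Ni_6W to Ni_6W+2W. DESeq2 called CDH2 lower in Ni_3D. The 6-week values depended on which Ni_6W library was kept. With Ni_6W replicate 2 left out, the log2 fold change was -1.05 in Ni_6W against Control_6W and 0.96 from Ni_6W to Ni_6W+2W. With Ni_6W replicate 1 left out instead, these values were -0.09 and 0.002. Cells no longer in nickel differed little from their controls: 0.07 (SE 0.22, adjusted p = 0.995 by edgeR) for Ni_3D+14D, -0.09 (SE 0.26, adjusted p = 0.92) for Ni_6W+2W and -0.14 (SE 0.14, adjusted p = 0.579) for the clones. The clones differed from Ni_6W+2W by -0.07 (SE 0.15, adjusted p = 0.967 by edgeR). The response at 6 weeks minus that at 3 days was 0.22 (SE 0.34, adjusted p = 0.857 by edgeR), and that after long minus after short exposure -0.16 (SE 0.34, adjusted p = 1.0).

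**Figure D2:**
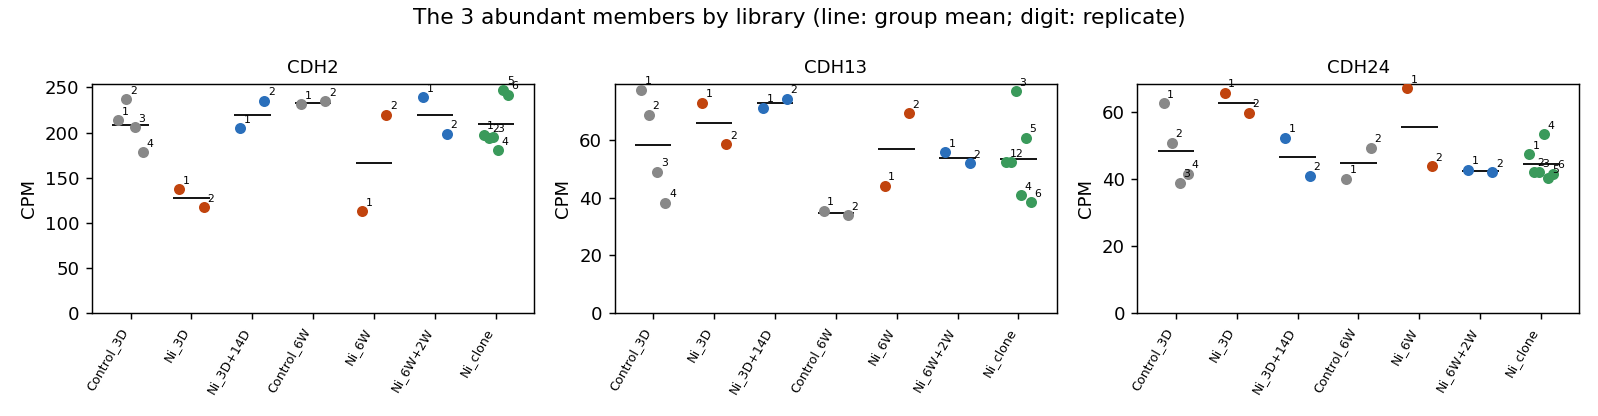
CPM (vertical, linear from 0) of CDH2, CDH13 and CDH24 in each library by group (horizontal); points are libraries with their replicate number and lines are group means. For CDH2 the Ni_3D libraries (137 and 117 CPM) and Ni_6W replicate 1 (113 CPM) sit below all others, and for CDH13 both Control_6W libraries (35.5 and 33.9 CPM) are lowest.

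CDH4 (R-cadherin, a retinal and neural relative of N-cadherin) split the controls. CDH4 (chr20:60174817-60515673, plus strand, hg19) was at 7.27 and 8.88 CPM in Control_3D replicates 1 and 2 but at 0.0774 and 0.468 CPM in replicates 3 and 4. In Control_6W it was at 0 and 0.243 CPM, 4 reads in all. In nickel it was at 2.81 and 1.37 CPM in Ni_3D and at 1.26 and 1.41 CPM in Ni_6W. Every nickel library so lay between the high and the low controls, with no overlap with Control_6W. After nickel CDH4 was at 3.55 and 4.63 CPM in Ni_3D+14D, at 1.01 and 1.58 CPM in Ni_6W+2W, and at 1.09, 4.72 and 6.65 CPM (lowest, median, highest) in the clones.

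Against Control_6W, CDH4 rose in the clones by a log2 fold change of 5.11 (SE 1.04, adjusted p = 0.0287 by edgeR). The value rests on 4 control reads, and was 4.09 without Control_6W replicate 1 and 9.31 by the fit without replicate 2, where no control read was left and the size depends on the fit's prior count. The call was lost on leaving out Control_6W replicate 1 (edgeR adjusted p = 0.0601), Control_6W replicate 2 (0.132), clone 3 (0.0569) or clone 4 (0.0514), and in a fit of all 20 libraries (0.0744). Against Ni_6W+2W the clones stood 1.69 higher on the log2 scale (SE 0.63, adjusted p = 0.709 by edgeR), a difference that did not pass. The third type I gene, CDH15, had at most 0.229 CPM.

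Listed promoters of 2 members, CDH4 and PCDH1, held the E-box CAGGTG, letters that ZEB1 is known to bind. They are shown with those of CDH12 and PCDH7, which fell in a nickel comparison. The 250 bases before the most upstream start listed by RefSeq (GRCh38.p14) are given 5′ to 3′ on the gene's strand. Capitals mark CAGGTG in CDH4 and PCDH1. In CDH12 and PCDH7 they mark the core letters ACGTG or GCGTG of the hypoxia response element on either strand. The windows are chr20:61499171-61499420 (plus) for CDH4, chr5:141869628-141869877 (minus) for PCDH1, chr5:22853345-22853594 (minus) for CDH12 and chr4:30720119-30720368 (plus) for PCDH7.
CDH4: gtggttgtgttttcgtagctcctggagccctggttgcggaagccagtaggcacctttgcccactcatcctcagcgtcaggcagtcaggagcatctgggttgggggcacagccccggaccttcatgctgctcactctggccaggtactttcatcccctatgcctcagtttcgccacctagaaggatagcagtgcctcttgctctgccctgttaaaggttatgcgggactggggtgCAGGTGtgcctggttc
PCDH1: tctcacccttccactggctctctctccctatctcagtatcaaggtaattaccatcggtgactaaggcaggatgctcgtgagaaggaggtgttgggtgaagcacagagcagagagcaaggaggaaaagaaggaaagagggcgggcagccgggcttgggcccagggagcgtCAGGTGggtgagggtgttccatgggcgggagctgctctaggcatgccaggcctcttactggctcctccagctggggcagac
CDH12: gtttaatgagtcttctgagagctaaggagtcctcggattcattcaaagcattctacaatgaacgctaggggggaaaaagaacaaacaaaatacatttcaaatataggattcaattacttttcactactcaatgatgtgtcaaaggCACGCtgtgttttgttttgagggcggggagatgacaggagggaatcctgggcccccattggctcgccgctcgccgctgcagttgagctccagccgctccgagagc
PCDH7: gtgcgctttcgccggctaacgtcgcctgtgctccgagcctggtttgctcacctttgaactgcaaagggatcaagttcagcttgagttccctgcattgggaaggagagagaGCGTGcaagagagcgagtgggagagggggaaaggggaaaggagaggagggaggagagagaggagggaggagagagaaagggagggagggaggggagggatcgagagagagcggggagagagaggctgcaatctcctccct
Of the 32 members, 21 had a listed promoter, 2 of them with CAGGTG (PCDH9 and PCDH18 had none) and 8 with ACGTG or GCGTG, both strands searched. Over all 35116 listed promoters, windows of the same length held CAGGTG in 17.5% and ACGTG or GCGTG in 43.2%. CDH18, which also fell in the clones, had 1 match of ACGTG or GCGTG and is not shown. A match describes letters only, and which start site these cells used was not tested. The listed starts were not matched to those of the deposited hg19 transcripts, so a window may lie away from the start of the counted transcript.

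Among the type II classical cadherins, CDH24 was abundant and nearly even. CDH24, a catenin-binding cadherin of many tissues, was at 65.6 and 59.7 CPM in Ni_3D, against 38.9 to 62.6 CPM in Control_3D and 40.1 and 49.2 CPM in Control_6W. It was at 67.0 and 43.7 CPM in Ni_6W, 52.3 and 40.9 CPM in Ni_3D+14D, 42.7 and 42.0 CPM in Ni_6W+2W and 40.2 to 53.2 CPM in the clones (median 42.0). The highest values were those of Ni_6W replicate 1 and Ni_3D replicate 1, close to Control_3D replicate 1, and the groups overlapped.

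CDH12, a brain cadherin, was found almost only in the controls with little ZEB1. CDH12 (chr5:21750973-22853731, minus strand, hg19) was at 1.48 and 4.74 CPM in Control_6W, 105 reads in all, and at 1.82 and 1.29 CPM in Control_3D replicates 3 and 4. Control_3D replicates 1 and 2 were at 0.178 and 0 CPM. Of the 14 nickel libraries 12 had no CDH12 read, Ni_3D replicate 1 stood at 0.0995 CPM and Ni_6W+2W replicate 2 at 0.0792 CPM. The Control_6W libraries did not overlap with any nickel library.

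CDH12 fell in the clones, where it was at least 114-fold lower than in Control_6W with a floor of 3 reads over the clones (edgeR adjusted p = 0.0200). The call was lost without Control_6W replicate 2 (edgeR adjusted p = 0.169) and by DESeq2 (adjusted p = 0.0682). In Ni_6W, also without reads, CDH12 was at least 34.6-fold below Control_6W, which did not pass (adjusted p = 0.09 by edgeR). It did pass there when these groups were fitted alone or when Control_3D replicates 1 and 2 were left out. In Ni_6W+2W 2 reads stood against 105, a ratio of 87.6 with a 95% counting interval of 23.7 to 733 (exact binomial, counting error only; adjusted p = 0.272 by edgeR). Against Control_3D it was at least 11.8-fold lower in Ni_3D+14D (adjusted p = 0.979 by edgeR), and the 4 controls differed among themselves. Pseudogene copies of CDH12 are annotated (CDH12P1 to CDH12P4), and how reads shared with them were counted is not given in the sources used here.

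CDH18, a cadherin of the central nervous system that lies near CDH12 on chromosome 5, had the same libraries high. CDH18 (chr5:19473155-20575982, minus strand, hg19) was at 0.767 and 0.851 CPM in Control_6W, 28 reads in all, and at 0.581 and 0.234 CPM in Control_3D replicates 3 and 4. Control_3D replicates 1 and 2 were at 0.0892 and 0 CPM. Ni_3D replicate 1 was at 0.119 CPM and clone 2 at 0.0994 CPM, and the other 12 nickel libraries had no read. All Control_6W values lay above all nickel values.

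CDH18 fell in the clones, with a log2 fold change against Control_6W of -5.05 (SE 0.85, edgeR adjusted p = 0.0177). By reads, 28 in the controls against 2 in the clones, the ratio was 45.7 with a 95% counting interval of 11.5 to 396. The call was lost without Control_6W replicate 2 (adjusted p = 0.145 by edgeR). CDH18 was at least 9.23-fold below Control_6W in Ni_6W (adjusted p = 0.125 by edgeR) and at least 15.6-fold below it in Ni_6W+2W (adjusted p = 0.271), neither of which passed.

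CDH11, a cadherin of osteoblasts and mesenchymal cells, showed the opposite split. It was at 4.97 and 4.86 CPM in Control_3D replicates 1 and 2 and had no reads in replicates 3 and 4 or in Control_6W. Nickel libraries reached 2.05 and 0.44 CPM in Ni_3D, 1.54 and 1.05 CPM in Ni_3D+14D, 0 and 0.264 CPM in Ni_6W and 0.0306 and 0.436 CPM in Ni_6W+2W. The clones ran from 0 in clones 1, 5 and 6 to 1.59 CPM in clone 2, with a median of 0.0252 CPM. All nickel libraries therefore lay below the 2 high controls, and 4 of the 14 had no read. The clones together were at least 6.03-fold above Control_6W, which did not pass (adjusted p = 0.324 by edgeR).

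**Figure D3:**
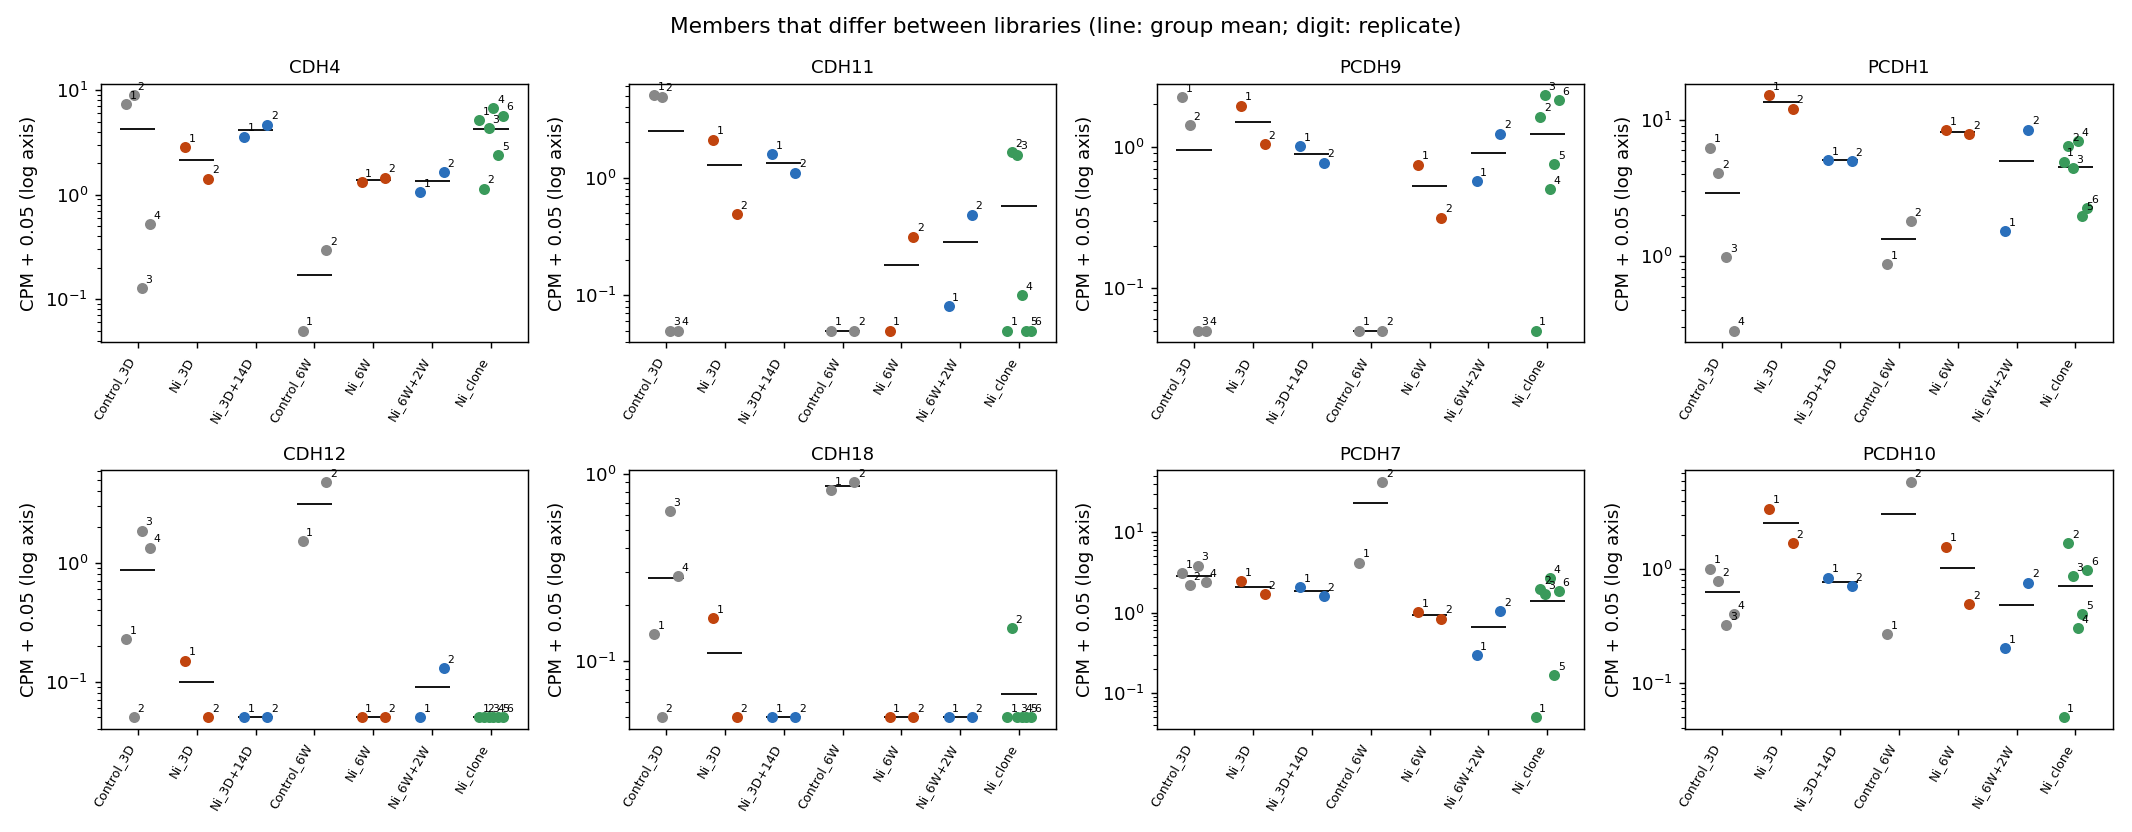
CPM plus 0.05 (vertical, log axis) of 8 low members in each library by group (horizontal); points are libraries with their replicate number and lines are group means. CDH12 and CDH18 are high in Control_6W and Control_3D replicates 3 and 4, where CDH4, CDH11 and PCDH9 are low or at 0, and PCDH7 is highest in Control_6W replicate 2 at 41.8 CPM.

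Among the atypical cadherins, CDH13, which is held in the membrane by a lipid anchor and has no catenin-binding tail, was lowest in Control_6W. CDH13 was at 35.5 and 33.9 CPM in Control_6W and at 77.3, 68.6, 48.9 and 38.2 CPM in Control_3D replicates 1 to 4. It was at 72.8 and 58.5 CPM in Ni_3D, 71.0 and 74.3 CPM in Ni_3D+14D, 44.0 and 69.3 CPM in Ni_6W, and 55.7 and 51.9 CPM in Ni_6W+2W. The clones ran from 38.3 CPM through a median of 52.3 CPM to 76.8 CPM. Every nickel library lay above both Control_6W libraries, and all lay within the Control_3D range. The log2 fold change against Control_6W was 0.71 (SE 0.31, adjusted p = 0.163 by edgeR) in Ni_6W and 0.64 (SE 0.25, adjusted p = 0.148) in the clones, and neither passed.

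CDH23, the tip-link cadherin of inner-ear hair cells, was highest in Ni_3D. CDH23 was at 1.39 and 1.18 CPM in Ni_3D against 0.401, 0.196, 0 and 0 CPM in Control_3D, with no overlap. It was at 0.351 and 0.328 CPM in Ni_3D+14D and at or under 0.275 CPM in every other library. The log2 fold change in Ni_3D was 2.82 (SE 0.88, adjusted p = 0.0795 by edgeR), and it passed only when Control_3D replicate 1 or replicates 1 and 2 were left out. The deposited interval of CDH23 (chr10:73571640-73575704, hg19) is short, so these reads cover that interval alone.

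Among the delta-1 protocadherins, PCDH1 had its highest levels in Ni_3D. PCDH1, expressed in airway epithelium and known as a susceptibility gene for bronchial hyperresponsiveness, was at 15.1 and 12.1 CPM in Ni_3D. Control_3D replicates were at 6.20, 4.02, 0.929 and 0.234 CPM, all below. In Ni_6W it was at 8.36 and 7.83 CPM against 0.822 and 1.76 CPM in Control_6W, again without overlap. After nickel it was at 5.05 and 4.95 CPM in Ni_3D+14D, 1.47 and 8.44 CPM in Ni_6W+2W, and 1.93, 4.64 and 6.95 CPM (lowest, median, highest) in the clones. Ni_6W+2W replicate 1 alone of the nickel libraries lay within Control_6W, while Ni_6W+2W replicate 2 lay above both Ni_6W libraries.

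PCDH1 did not pass in edgeR's test. The log2 fold change was 2.21 (SE 0.81, adjusted p = 0.123 by edgeR) in Ni_3D, 2.66 (SE 1.08, adjusted p = 0.143) in Ni_6W and 1.81 (SE 0.59, adjusted p = 0.0955) in the clones. DESeq2 called it higher in all 3 comparisons. CA9, a gene induced by the hypoxia pathway that nickel is known to activate, was at 624 and 368 CPM in Ni_3D and 40.7 and 54.0 CPM in Ni_6W, against 13.2 CPM or less in all controls. Its part in the PCDH1 and CDH2 levels was not tested.

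PCDH7, a protocadherin first described in brain and heart, passed in Ni_6W, where 1 of the 2 control libraries stood far above the other. PCDH7 (chr4:30722037-31148423, plus strand, hg19) was at 4.11 and 41.8 CPM in Control_6W and at 3.03, 2.16, 3.79 and 2.34 CPM in Control_3D. It was at 0.958 and 0.792 CPM in Ni_6W, 0.245 and 0.990 CPM in Ni_6W+2W, 2.41 and 1.64 CPM in Ni_3D and 2.02 and 1.54 CPM in Ni_3D+14D. Clones ran from 0 in clone 1 and 0.117 in clone 5 to 2.62 CPM, with a median of 1.71 CPM. All nickel libraries of the long exposure lay below both Control_6W libraries, and Control_6W replicate 2 stood far above every other library.

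The log2 fold change of PCDH7 in Ni_6W was -4.69 (SE 0.93, adjusted p = 0.0497 by edgeR). Without Control_6W replicate 2 it was -2.22, still downwards. It was -4.86 without Ni_6W replicate 1 and -4.69 without Control_3D replicate 1 and Ni_3D replicate 1. The call was lost in each of these fits, as was that of every other gene, so the loss says nothing of PCDH7 alone. In a fit of the 2 groups alone PCDH7 did not pass either (adjusted p = 0.101 by edgeR). In Ni_6W+2W the fold change was -5.24 (SE 0.94, adjusted p = 0.249 by edgeR), which DESeq2 called (adjusted p = 3.67e-07). It was -2.75 (adjusted p = 0.917 by edgeR) without Control_6W replicate 2, and edgeR called it without Control_6W replicate 1 (-6.10, adjusted p = 0.00699) and without Control_3D replicates 1 and 2 (adjusted p = 0.0384) or 3 and 4 (0.0347). In the clones it was -4.07 (SE 1.01, adjusted p = 0.053 by edgeR) and -1.60 (adjusted p = 0.624) without Control_6W replicate 2. The clones' fold change passed in edgeR without Control_6W replicate 1 (-4.94, adjusted p = 0.0213) and in the fit of all 20 libraries (-4.10, adjusted p = 0.0247).

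Short exposure left PCDH7 nearer its controls. The log2 fold change was -0.49 (SE 0.69, adjusted p = 0.698 by edgeR) in Ni_3D, -0.69 (SE 0.71, adjusted p = 0.979) in Ni_3D+14D and -0.20 (SE 0.79, adjusted p = 0.947) between these groups. The difference between the 6-week and the 3-day response was itself -4.20 (SE 1.09, adjusted p = 0.255 by edgeR), and after exposure -4.56 (SE 1.10, adjusted p = 1.0), and neither passed. Without Control_6W replicate 2 these values were -1.72 (adjusted p = 0.762 by edgeR) and -2.06 (adjusted p = 1.0). Both passed in edgeR without Control_6W replicate 1 (adjusted p = 0.0215 and 0.0443), and DESeq2 called the first (adjusted p = 0.0135) but not the second (0.0833). From Ni_6W to Ni_6W+2W PCDH7 changed by -0.55 (SE 0.90, adjusted p = 0.914 by edgeR), and the clones differed from Ni_6W+2W by 1.13 (SE 1.26, adjusted p = 0.918).

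PCDH9, a brain protocadherin, followed CDH11 and CDH4 in the controls. PCDH9 was at 2.21 and 1.37 CPM in Control_3D replicates 1 and 2 and had no reads in replicates 3 and 4 or in Control_6W. It was at 1.91 and 0.998 CPM in Ni_3D, 0.965 and 0.722 CPM in Ni_3D+14D, 0.697 and 0.264 CPM in Ni_6W and 0.520 and 1.19 CPM in Ni_6W+2W. Clones ran from 0 in clone 1 to 2.27 CPM in clone 3, with a median of 1.15 CPM. Every nickel library but clone 1 had reads. PCDH9 was at least 6.40-fold above Control_6W in Ni_6W, at least 9.39-fold in Ni_6W+2W and at least 13.1-fold in the clones, and none passed with all libraries (adjusted p = 0.181, 0.312 and 0.104 by edgeR). In edgeR PCDH9 did pass in Ni_6W with the replicate number as a block and without Control_3D replicates 1 and 2 or 3 and 4. It also passed in Ni_6W+2W without Control_3D replicates 3 and 4, and in the clones without clone 1. DESeq2 called it in the clones. The antisense genes PCDH9-AS2, PCDH9-AS3 and PCDH9-AS4 were at 0 in all 20 libraries, and the strand used in counting is not given in the sources used here.

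Among the delta-2 protocadherins, PCDH10, a protocadherin often silenced in tumours, was at 0.219 and 5.78 CPM in Control_6W and at 0.271 to 0.958 CPM in Control_3D. It was at 3.34 and 1.64 CPM in Ni_3D, above all 4 controls, and at 1.52 and 0.440 CPM in Ni_6W. Later libraries were at 0.790 and 0.656 CPM in Ni_3D+14D, 0.153 and 0.713 CPM in Ni_6W+2W and 0 to 1.64 CPM in the clones (median 0.583). Control_6W replicate 2 was again the highest library, as for PCDH7 and CDH12, and no comparison of PCDH10 passed.

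PCDH18 was at 1.09 and 0.834 CPM in Control_3D replicates 1 and 2, 0.116 and 0.117 CPM in replicates 3 and 4, and 0.219 and 0.182 CPM in Control_6W. It was at 1.13 and 1.58 CPM in Ni_6W and 0.735 and 1.70 CPM in Ni_6W+2W, above Control_6W, and at 0.298 and 0.166 CPM in Ni_3D and 0.570 and 0.689 CPM in Ni_3D+14D. The clones ran from 0 through 0.60 to 1.16 CPM (lowest, median, highest). Its levels in Ni_3D thus lay near the low controls and those in Ni_6W above the high ones. Ni_6W+2W lay on either side of the high controls, and the median of the clones lay below them. PCDH18 passed in no comparison with all libraries. Without Control_3D replicates 3 and 4 edgeR called it higher in Ni_6W and in long minus short exposure.

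Of the remaining members, PCDH12, a protocadherin best known from endothelium, had reads in all 20 libraries. PCDH12 was at 1.77 and 2.26 CPM in Ni_3D against 0.687 to 1.05 CPM in Control_3D, without overlap. It was at 0.520 to 1.57 CPM elsewhere, the clones between 0.795 and 1.29 CPM with a median of 0.870. PCDH17 reached 1.74 and 2.14 CPM in clones 2 and 6, and PCDH20 reached 1.34 CPM in clone 2. PCDH19 had reads in 4 libraries and stood highest in Control_3D replicate 1 (0.446 CPM) and Ni_3D replicate 1 (0.637 CPM), the libraries that also held ESR1. Clone 1 had no read of CDH11, PCDH7, PCDH9, PCDH10, PCDH17 or PCDH18, while CDH2 was at 197 CPM and CDH4 at 5.14 CPM in it.

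Counted over the tested members, few passed in any comparison. In Ni_3D against Control_3D, 0 of 19 passed by edgeR, where 4.33% of all 14927 genes did. Without adjustment 7 had a p under 0.05, as did 24.3% of all genes, and DESeq2 called 2 of them and 1880 genes in all. In Ni_6W against Control_6W 1 of 19 passed (PCDH7, lower), beside 2.47% of all genes, or 1.21% counting lower genes alone. Without adjustment 8 of the 19 had a p under 0.05 by edgeR, beside 26.6% of all genes. In the clones against Control_6W 1 rose (CDH4) and 2 fell (CDH12, CDH18) of 14 tested, beside 5.26% of 14172 genes (2.89% higher and 2.38% lower). Without adjustment 7 of the 14 had a p under 0.05 by edgeR, beside 25.2% of genes. These 2 comparisons share the Control_6W libraries. ZEB1 was at 7.75 to 14.6 CPM in the clones and 0.986 and 0.608 CPM in Control_6W. Any gene called between these groups therefore goes with ZEB1 by design, and its part in the 3 clone calls was not tested.

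In cells no longer in nickel, 0 of 19 members passed by edgeR in Ni_3D+14D against Control_3D and in Ni_6W+2W against Control_6W, where 0% of all genes did in each, and DESeq2 called 0 and 1. Without adjustment 2 and 6 members had a p under 0.05, beside 4.11% and 13.1% of all genes. From Ni_3D to Ni_3D+14D 0 of 19 passed by edgeR, beside 0.255% of all genes. Before adjustment 2 of them had a p under 0.05, beside 12.6% of genes, and DESeq2 called 0. From Ni_6W to Ni_6W+2W 0 of 19 passed by edgeR beside 0%, with 1 at an unadjusted p under 0.05 (6.59% of genes) and 0 by DESeq2. Between clones and Ni_6W+2W 0 of 12 passed by edgeR beside 0.028%, with 1 at an unadjusted p under 0.05 (6.61% of genes) and 0 by DESeq2. For long minus short exposure and for after long minus after short exposure 0 of 19 passed by edgeR beside 0%, with 4 and 2 at an unadjusted p under 0.05 (10.9% and 1.94% of genes) and 1 and 0 by DESeq2.

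The members' median log2 fold change was 0.178 in Ni_3D beside 0.028 over all genes, and 0.327 in the clones beside 0.014. In Ni_6W it was 0.206 by the fit but 0.02 with genes without reads in a group set at their bound, beside 0.027 over all genes. From Ni_3D to Ni_3D+14D it was -0.797 by the fit and -0.199 with such genes at their bound, beside -0.026.

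**Figure D4:**
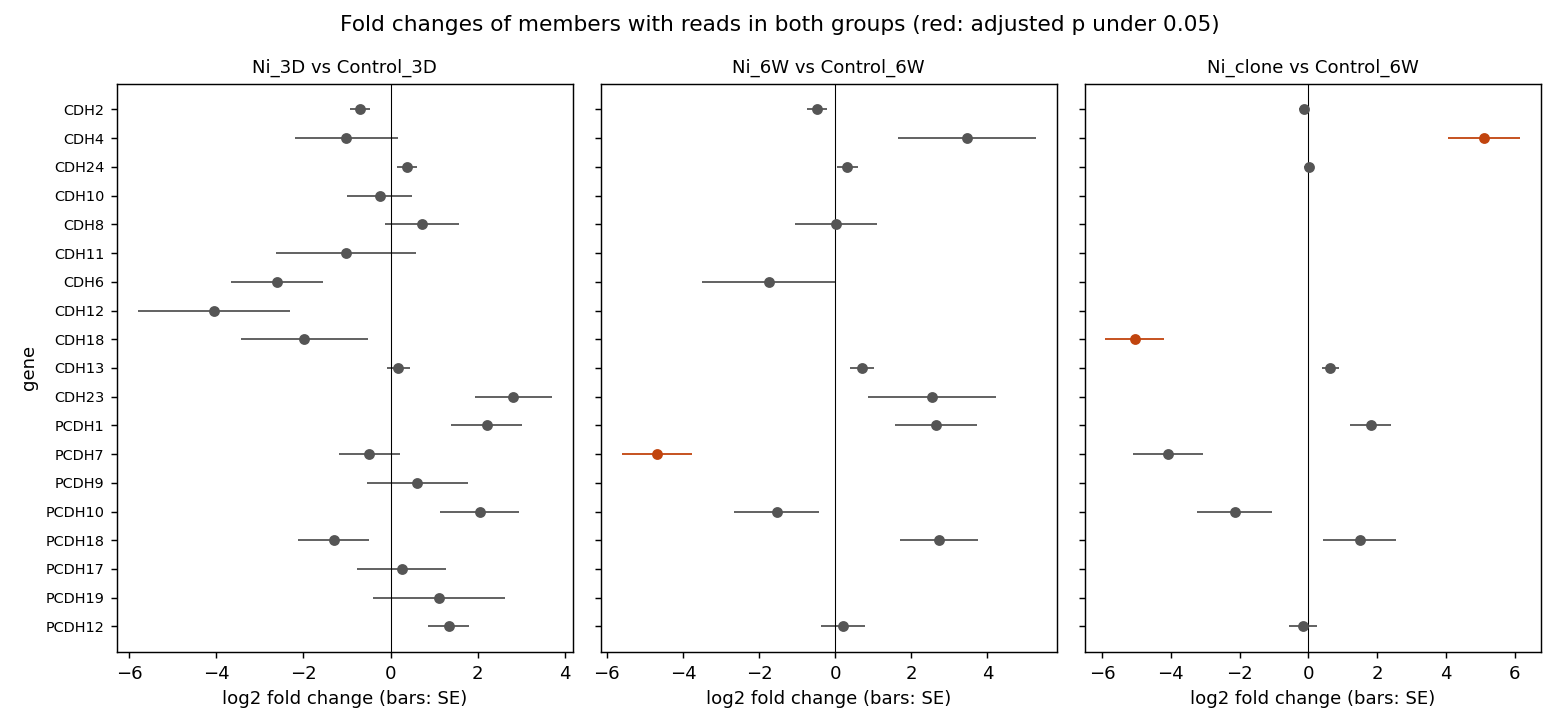
Log2 fold change (horizontal; bars are the SE) of each tested member with reads in both groups (vertical) in Ni_3D against Control_3D, Ni_6W against Control_6W and the clones against Control_6W; red marks an adjusted p under 0.05. PCDH7 in Ni_6W (-4.69) and CDH4 (5.11) and CDH18 (-5.05) in the clones are red, and CDH12 in the clones is not drawn because they had no reads.

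Genes of the proteins that work with cadherins were read from a list of their own. Of 25 listed partners (catenins, the sheddase ADAM10, phosphatases and actin regulators) 23 were tested. In Ni_3D 2 of the 23 passed, beside 4.33% of all genes. ARVCF, a p120-catenin relative, rose by 1.09 on the log2 scale (SE 0.25, edgeR adjusted p = 0.0347), from 23.8, 19.4, 33.5 and 33.4 CPM in Control_3D to 51.6 and 64.1 CPM. CTNNAL1, an alpha-catenin relative, fell by 0.83 on the log2 scale (SE 0.19, adjusted p = 0.0347 by edgeR), from 126 to 169 CPM in Control_3D to 78.2 and 77.5 CPM. No other partner passed by edgeR in any of the 10 comparisons. Beta-catenin (CTNNB1) was at 240 to 496 CPM, p120-catenin (CTNND1) at 113 to 292 CPM and alpha-catenin (CTNNA1) at 508 to 664 CPM in the 20 libraries, while CTNNA2, CTNNA3 and CTNND2 reached at most 0.0223, 0.0608 and 1.35 CPM. Of 27 listed relatives in the cadherin superfamily that are not members, 20 were tested in the uncloned fit and 18 in the clones against Control_6W. The only call was CDHR2, a cadherin of the brush border, higher in the clones (adjusted p = 0.0437 by edgeR), beside 5.26% of 14172 genes. It was at 0.232 to 0.605 CPM in the clones against 0.0548 and 0 CPM in Control_6W, where 3 reads make 0.161 CPM in replicate 1. In Control_3D replicate 1 it was at 0.691 CPM, above every clone.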

How the data were processed

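Raw read counts per RefSeq gene, 1 table per library, were deposited by the authors without normalisation, and per the file headers each count stands beside an RPKM value computed by the authors. The submitters' processing notes name STAR 2.4, DESeq, DESeq2, GRCh37 and hg19. Their roles, the counting and the strand were not given in the sources used here. Libraries were joined by RefSeq identifier, since 28 gene symbols were altered in 2 of them. Counts of the 14 uncloned libraries were fitted together in edgeR 4.0.16 under R 4.3.3 (TMM normalisation, the quasi-likelihood F test with robust estimation, and filterByExpr at min.count 10 and min.total.count 15). The clones were fitted with Control_6W alone or with Ni_6W+2W alone. p-values were Benjamini-Hochberg adjusted over all tested genes, with a threshold of 0.05. The biological coefficient of variation was 29.7% in the uncloned fit and 24.7% and 24.8% in the clone fits. The SE is the size of the log2 fold change over the square root of F. The script was tested on simulated data. DESeq2 1.42.0 was an alternative, beside other size factors, no filter, other libraries in the fit, a replicate block and each library left out.

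Floors of 3 reads over a group and 95% exact binomial intervals cover counting error only. Members were every gene of the naming rule. Values by library were given for members with a group mean of at least 1 CPM or a call, fold changes for called members and for CDH2 and PCDH7 throughout; other fold changes, and PCDH17, PCDH19 and PCDH20, were added after their values were seen. Members and lists were chosen with earlier results of these data known. The 10 deposited comparison tables and protein sequences were not used here. Promoter sequences came from RefSeq, GRCh38.p14, by gene symbol, and gene positions from the deposited tables.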

Additional observations from a re-analysis of the deposited data

Results flagged for a closer look

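CDH18 in clone 2 stood at 0.099 CPM (2 reads), while the other 5 clones had no read, so the gap to the nearest clone was the whole range by construction. Among the described members 27 groups of 4 or 6 libraries were examined with Dixon's criterion, which by its nominal level sets apart about 1 group in 20 by chance.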

How the results depend on the processing

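Counts of members called are given with the number called among all genes. With DESeq2, Ni_3D against Control_3D had 2 calls (CDH2, PCDH1; 1880 genes) in place of 0, Ni_6W against Control_6W 2 (PCDH1, PCDH7; 2051) in place of 1, Ni_6W+2W against Control_6W 1 (320) and long minus short exposure 1 (190; PCDH7 in both) in place of 0, and the clones against Control_6W 5 (CDH4, CDH18, PCDH1, PCDH9, PCDH17; 1970) in place of 3. Without Control_3D replicates 1 and 2, Ni_3D had 4 (CDH12, CDH23, PCDH1, PCDH9; 1174), Ni_6W 3 (CDH12, PCDH7, PCDH9; 761) and Ni_6W+2W 1 (PCDH7; 133). Without Control_3D replicates 3 and 4, Ni_6W had 4 (CDH4, PCDH7, PCDH9, PCDH18; 760), Ni_6W+2W 2 (PCDH7, PCDH9; 149) and long minus short exposure 2 (CDH4, PCDH18; 101). With only the groups compared, Ni_3D+14D against Ni_3D had 1 (PCDH1; 243), and in Ni_6W the 1 call was CDH12 in place of PCDH7 (111). The fit of all 20 libraries kept 3 calls in the clones, with PCDH7 in place of CDH4 (464). Leaving out each library in turn gave 0 to 1 in Ni_3D (CDH23 without Control_3D replicate 1) and 0 to 2 in Ni_6W (CDH2 and PCDH7 without Ni_6W replicate 2; 2871 genes). Ni_6W had 0 without Control_6W replicate 2, without Ni_6W replicate 1 and without Control_3D replicate 1 and Ni_3D replicate 1, where 0 of all genes were called as well, so these say nothing of the members alone. Leaving 1 out gave 0 to 1 in Ni_6W+2W (PCDH7 without Control_6W replicate 1), in Ni_6W+2W against Ni_6W (CDH2 without Ni_6W replicate 2; 1150), and in both long against short differences (PCDH7 without Control_6W replicate 1). In the clones it gave 0 (6 genes) without Control_6W replicate 2, 4 without clone 1, and 3 without Control_6W replicate 1, again with PCDH7 in place of CDH4. The cause of these changes was not tested.

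The CDH2 log2 fold change of Ni_3D+14D against Control_3D, 0.07, ran from -0.0396 to 0.1603 with 1 library left out (negative without Ni_3D+14D replicate 2) and was -0.0445 with the replicate block and -0.0458 without Control_3D replicates 3 and 4. With 1 library left out CDH2 ran from -0.2312 to 0.0305 in Ni_6W+2W against Control_6W (positive without Ni_6W+2W replicate 2). In long minus short exposure it ran from -0.3302 to 0.6127 (negative without Ni_6W replicate 2). In the clones against Ni_6W+2W it ran from -0.1878 to 0.0573 (positive without Ni_6W+2W replicate 1). PCDH7 ran from -0.4376 to 0.121 in Ni_3D+14D against Ni_3D (positive without Ni_3D replicate 1, and 0.1203 without Control_3D replicate 1 as well). In Ni_6W+2W against Ni_6W it ran from -1.8362 to 0.1524 (positive without Ni_6W+2W replicate 1). None of these passed.

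With the replicate number as a block, Ni_6W against Control_6W had 2 calls (PCDH7, PCDH9; 761 genes) in place of 1, and the other uncloned comparisons kept 0. Libraries of the same number showed no common pairing. Of 30 pairs 11 had a correlation of deviations over 0.1 and 5 under -0.1, from -0.355 to 0.36. Between groups of 2 libraries, replicates 1 and 2 give the same value by construction, so these counts hold repeated values. The highest, 0.36, was between Control_3D replicate 1 and Ni_3D replicate 1, the libraries that also held ESR1. Groups of 2 libraries, and 0 to 4 reads of CDH4, CDH11, CDH12, CDH18 or PCDH9 in a group, limit the fold changes of these genes.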
